A study of Mus musculus with 17 samples.

Results

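The contacts described here are the far contacts of 4 Tri-C viewpoints with their own chromosome: pairs of fragments in which both lie on the viewpoint chromosome and at least one has its midpoint more than 2 Mb from the viewpoint centre. They make up 368871 of the 1997429 fragment pairs listed in the 4 deposited tables, with 88462 of 514959 for R2, 106571 of 448951 for alpha CTCF, 56143 of 331928 for HS2 and 117695 of 701591 for beta CTCF. Another 290772 listed pairs have both fragments within 2 Mb of their viewpoint, and the rest involve another chromosome. Pairs with a fragment longer than 1 Mb were left out, which removed 1 listed pair of the R2 table (2 counts) and 1 of the HS2 table (3 counts). The members nearest to the 2 Mb limit lay 2.0001 to 2.0004 Mb from their viewpoint, and the nearest pairs on the other side of it at 1.99964 to 1.99983 Mb.

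Tri-C cuts cross-linked chromatin with the restriction enzyme NlaIII, ligates it and enriches by oligonucleotide capture for reads in which a chosen fragment, the viewpoint, is joined to several others on a single allele. The erythroid cells were Ter-119+ cells, strain C57Bl6, taken from spleens of female C57BL/6 mice 5 days after treatment with phenylhydrazine, given as 3 doses of 40 mg/g body weight (as the labels write it) 12 hours apart. Phenylhydrazine destroys red blood cells, and the spleen then fills with red cell precursors. The ES cells were of the E14 embryonic stem cell line, strain 129/Ola, for which no treatment applies. Cell type therefore cannot be told apart from strain, or from tissue against culture, in any comparison below. Counts of the 10 erythroid and 7 ES libraries were summed over technical replicates, which left 3 biological replicates against 3. Whether each of these was a separate animal or culture is not stated, so the p-values may measure technical spread only. Selection on Ter-119 leaves several stages of red cell maturation together, and contact counts carry no marker expression against which the labelled cell types could be checked.

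The frequency with which pieces of one chromosome meet falls with the distance between them, but not smoothly. Active, gene-rich stretches tend to meet other active stretches, and silent stretches meet silent ones, at distances far beyond those of enhancers and their genes, a pattern known as compartments. The alpha-globin genes lie on chromosome 11 among broadly expressed genes, and R2 is one of their enhancers. The alpha CTCF viewpoint is a nearby site bound by CTCF, an insulator protein. The beta-globin genes lie on chromosome 7 within an array of olfactory receptor genes. HS2 is an enhancer within their locus control region, while beta CTCF is a CTCF site of the same locus. Both globin loci are active in erythroid cells and silent in ES cells, and the question the design sets for these members is whether that change goes with a change in the contacts a locus makes along its whole chromosome.

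On build mm9, R2 occupied the gap in the listed fragments at chromosome 11, 32149923 to 32152111, and alpha CTCF the gap at 32136092 to 32138888. HS2 occupied chromosome 7, 111008334 to 111011358, and beta CTCF 110954158 to 110956820. The alpha viewpoints have 29.1 Mb of listed chromosome towards lower coordinates and 89.7 Mb towards higher ones. The beta viewpoints have 108.0 Mb on the lower side and only 41.5 to 41.6 Mb on the higher side, so the sides were kept apart in the distance bands. Other measures by distance, such as the slopes and the removal of the decline, joined both sides. Distances below are signed, negative towards lower coordinates.

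Far pairs numbered 14960 to 234909 per biological replicate and viewpoint, of 51238 to 484111 same-chromosome pairs. The smallest sets were those of ES replicate 2, with 14960 far pairs for beta CTCF, 16272 for HS2 and 17150 for alpha CTCF. ES replicate 2 stood apart from the other ES replicates at every viewpoint, with a lower far share and more far fragments close together, as the values below show. The first technical replicate of each erythroid biological replicate also stood apart, with 1.29 to 1.74 counts per listed far pair, against 3.40 to 8.005 in the other erythroid libraries. Far shares of the first technical replicates covered nearly the same range as those of the others, for example 38.2 to 42.3% against 36.6 to 42.7% for R2. Values without these libraries are given for the far share, and for other results where stated.

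Among pairs on the viewpoint chromosome, far pairs were more frequent in erythroid cells at all 4 viewpoints. For R2, far pairs were 39.3, 42.1 and 37.8% of same-chromosome pairs in the erythroid replicates, against 29.3, 20.1 and 28.8% in the ES replicates. For alpha CTCF they were 39.9, 44.1 and 35.3% in erythroid cells and 27.8, 20.03 and 28.3% in ES cells. The 2 alpha viewpoints thus had almost the same share, 39.8% each in erythroid cells and 26.1 and 25.4% in ES cells. For HS2 the share was 52.5, 53.9 and 48.2% in erythroid cells, against 36.5, 31.8 and 42.2% in the ES replicates. For beta CTCF it was 57.0, 58.5 and 48.5% in erythroid cells, against 34.8, 25.6 and 36.5% in the ES replicates.

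No erythroid replicate overlapped an ES replicate at any viewpoint with the 2 Mb limit. The differences of the means were 13.7 percentage points for R2, 14.4 for alpha CTCF, 14.7 for HS2 and 22.4 for beta CTCF. The exact two-sided permutation p was 0.1 in each case, the smallest that 3 against 3 allows, so none could pass 0.05. Without ES replicate 2 the differences were 10.7, 11.7, 12.1 and 19.0 points in the same order, and without the first erythroid technical replicates 13.7, 14.4, 14.5 and 22.0 points. With far taken as more than 1 Mb the differences were 12.2, 13.2, 5.80 and 13.9 points, and for HS2 the exact permutation p was then 0.3. When each fragment pair was counted once per library, the shares averaged 50.7, 50.8, 61.6 and 62.1% in erythroid cells, against 34.1, 32.8, 41.0 and 36.1% in the ES cells.

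**Figure D1:**
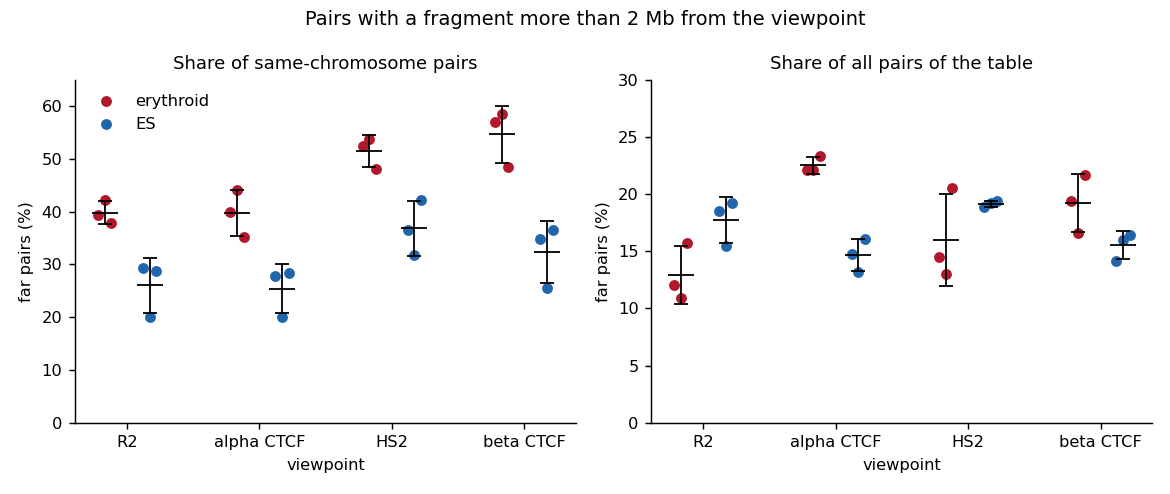
Share of far pairs per biological replicate (points), with the mean and SD of each group of 3 (black), at the 4 viewpoints; the left panel is in % of same-chromosome pairs and the right panel in % of all pairs of the table. On the left every erythroid replicate lies above every ES replicate, while on the right this holds only for alpha CTCF and beta CTCF.

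Far pairs were also set against the whole table, which includes the pairs with other chromosomes. Pairs with both fragments on other chromosomes were 49.98 ± 7.16% of the R2 table in erythroid cells, against 18.3 ± 5.27% in ES cells (SD, n = 3 each). They were 51.0 ± 9.48% of the HS2 table in erythroid cells, against 32.7 ± 5.35% in ES cells. For alpha CTCF they were 26.6 ± 6.45% in erythroid cells and 28.7 ± 4.75% in ES cells, and for beta CTCF 47.9 ± 7.38% in erythroid cells and 35.4 ± 10.5% in ES cells. As a share of the whole table, far pairs were 12.9% in erythroid cells and 17.7% in ES cells for R2 (exact permutation p = 0.2), and 16.0% in erythroid cells and 19.2% in ES cells for HS2 (exact permutation p = 0.4). They were 22.5% in erythroid cells and 14.7% in ES cells for alpha CTCF, and 19.3% in erythroid cells and 15.5% in ES cells for beta CTCF, with no overlap of replicates (exact permutation p = 0.1 each). The direction for R2 and HS2 thus turned with the denominator, and the part of the other-chromosome pairs in these shares was not tested.

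The enhancer and the CTCF viewpoint of a locus were compared within each replicate. At the beta locus the far share of same-chromosome pairs from HS2 relative to beta CTCF was -0.08 on the log2 scale in erythroid cells (replicates -0.12, -0.12 and -0.01) and 0.20 in ES cells (0.07, 0.31 and 0.21). HS2 had the smaller far share of the 2 in every erythroid replicate and the larger in every ES replicate, a difference of -0.28 (exact permutation p = 0.1). At the alpha locus the same ratio was 0.004 in erythroid cells, against 0.03 in ES cells, a difference of -0.03 within the spread of the replicates (exact permutation p = 0.7). Both comparisons were larger with the whole table as denominator. The ratio at the alpha locus was then -0.88, -1.02 and -0.57 in erythroid cells, against 0.33, 0.23 and 0.26 in the ES replicates, a difference of -1.09 (exact permutation p = 0.1), and the difference at the beta locus was -0.59 (exact permutation p = 0.1).

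Beyond 2 Mb, contacts declined with distance at every viewpoint, but along different curves. Levels are given as contacts per Mb per 1000 same-chromosome pairs, in bands of distance on either side, with both fragments of a pair counted. Bands were compared with edgeR's quasi-likelihood test, the library size being the same-chromosome pairs and the threshold an adjusted p of 0.05. For R2, 7 of 10 far bands were called higher in erythroid cells and 0 lower, beside 57.1% and 21.4% of all its bands, near ones included. For alpha CTCF it was 6 higher and 1 lower of 10 (42.9% and 28.6% of all bands), for HS2 8 higher and 1 lower of 11 (60% and 20%), and for beta CTCF 9 higher and 1 lower of 11 (60% and 20%). For R2 these counts turned with the scaling. With the whole table as library size 0 far bands of R2 were higher and 5 lower, and for HS2 2 were higher and 3 lower, so only bands whose change kept its direction under all 5 scalings tried are described as changed in what follows. For alpha CTCF, 4 far bands were called without erythroid replicate 2, against 7 with it.

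The alpha viewpoints showed a shoulder rather than a steady fall towards higher coordinates. From alpha CTCF, the level was 6.53 between 2 and 5 Mb and 2.94 between 5 and 10 Mb in erythroid cells, then 10.9 between 10 and 20 Mb, 8.96 between 20 and 40 Mb and 2.28 between 40 and 80 Mb. In ES cells the same bands held 10.7, 2.50, 5.70, 3.96 and 1.47. The shoulder between 10 and 40 Mb was present in both cell types and higher in erythroid cells. Replicates in the 20 to 40 Mb band read 9.09, 10.4 and 7.43 in erythroid cells, against 4.22, 3.26 and 4.39 in the ES replicates, with no overlap. The log2 change was 1.18 ± 0.16 (SE; edgeR adjusted p = 0.000557), and the 10 to 20 Mb band rose by 0.93 ± 0.12 (edgeR adjusted p = 0.000408). Between 2 and 5 Mb on the same side the level fell in erythroid cells, to 6.54, 6.59 and 6.48, against 11.1, 10.3 and 10.7 in ES cells (log2 change -0.71 ± 0.11, edgeR adjusted p = 0.000712). These 3 bands kept their direction under all 5 scalings and passed the threshold under each.

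From R2 the shoulder had the same place, with levels of 9.37, 4.36, 10.2, 8.02 and 2.81 in the same 5 bands in erythroid cells, against 11.3, 2.92, 5.79, 4.25 and 1.44 in the ES cells. Its 20 to 40 Mb band was at 8.11, 8.56 and 7.39 in erythroid cells, against 4.64, 3.31 and 4.79 in the ES replicates (log2 change 0.92 ± 0.18, edgeR adjusted p = 1.63e-05). That log2 change was -0.16 with the whole table as library size and 0.31 with the far pairs as library size, so its direction depends on the scaling. On the lower side the alpha viewpoints were flatter, at 10.6 to 5.21 for R2 and 10.1 to 4.95 for alpha CTCF in erythroid cells from 2 to 20 Mb. In ES cells those bands lay between 9.66 and 3.66 for R2 and between 9.12 and 3.52 for alpha CTCF. From 20 Mb to the end of the lower side the level rose again in both cell types. It was 7.67 in erythroid cells and 5.86 in ES cells for R2, and 8.51 in erythroid cells and 5.56 in ES cells for alpha CTCF.

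The beta viewpoints had a marked asymmetry between 2 and 5 Mb that ran in opposite ways in the 2 cell types. From HS2 the level on the lower side was 30.5, 29.0 and 24.1 in the erythroid replicates, against 8.98, 8.24 and 12.2 in the ES replicates. On the higher side it was 14.9, 12.1 and 14.1 in erythroid cells, against 19.8, 18.6 and 22.5 in the ES replicates. Erythroid cells thus had more contacts on the lower side and ES cells more on the higher side, in every replicate. The lower side rose by 1.51 ± 0.15 on the log2 scale (edgeR adjusted p = 4.32e-14) and the higher side changed by -0.57 ± 0.15 (edgeR adjusted p = 0.000508).

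Beta CTCF gave the same asymmetry. The lower side held 32.5, 35.0 and 25.8 in erythroid cells, against 7.98, 7.28 and 12.6 in the ES replicates, with a log2 difference of 1.74 ± 0.18 (edgeR adjusted p = 2.63e-12). The higher side held 13.6, 10.5 and 13.3 in erythroid cells, against 19.2, 14.9 and 17.9 in the ES replicates, with a log2 difference of -0.47 ± 0.18 (edgeR adjusted p = 0.013). All 4 of these beta bands kept their direction and passed the threshold under each of the 5 scalings. When 1 replicate was left out, the higher-side band of beta CTCF passed in only 4 of 6 fits, and the others in all 6. HS2 and beta CTCF were measured in the same libraries, so they are no independent repeats of each other.

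Farther out on the higher side, erythroid levels exceeded ES levels again. Between 5 and 10 Mb HS2 read 17.6, 17.9 and 17.3 in erythroid cells, against 8.34, 9.54 and 10.99 in the ES replicates. The log2 change was 0.87 ± 0.14 (edgeR adjusted p = 3.27e-07), and 0.13 with the whole table as library size, where it was not called (edgeR adjusted p = 0.725). For beta CTCF this band read 19.4, 19.0 and 17.2 in erythroid cells, against 8.33, 6.21 and 9.43 in the ES replicates. Its log2 change of 1.21 ± 0.18 (edgeR adjusted p = 4.13e-08) was called under all 5 scalings. The last 1.5 Mb of chromosome 7, more than 40 Mb away, was at 7.32, 7.98 and 6.77 from HS2 in erythroid cells, against 2.84, 1.33 and 3.00 in the ES replicates. From beta CTCF that end of the chromosome was at 7.54, 8.51 and 6.84 in erythroid cells, against 1.81, 2.12 and 1.38 in the ES replicates. The log2 changes were 1.61 ± 0.46 for HS2 (edgeR adjusted p = 0.00147) and 2.10 ± 0.23 for beta CTCF (edgeR adjusted p = 3.26e-12). Both passed under all 5 scalings. On the lower side the stretch from 40 to 80 Mb was not called with same-chromosome pairs as library size, at 1.57 in erythroid cells and 1.63 in ES cells for HS2 and at 1.48 in erythroid cells and 1.44 in ES cells for beta CTCF. Under each of the other 4 scalings it was called lower, with log2 changes of -0.79 to -0.50 for HS2 and -0.74 to -0.44 for beta CTCF.

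**Figure D2:**
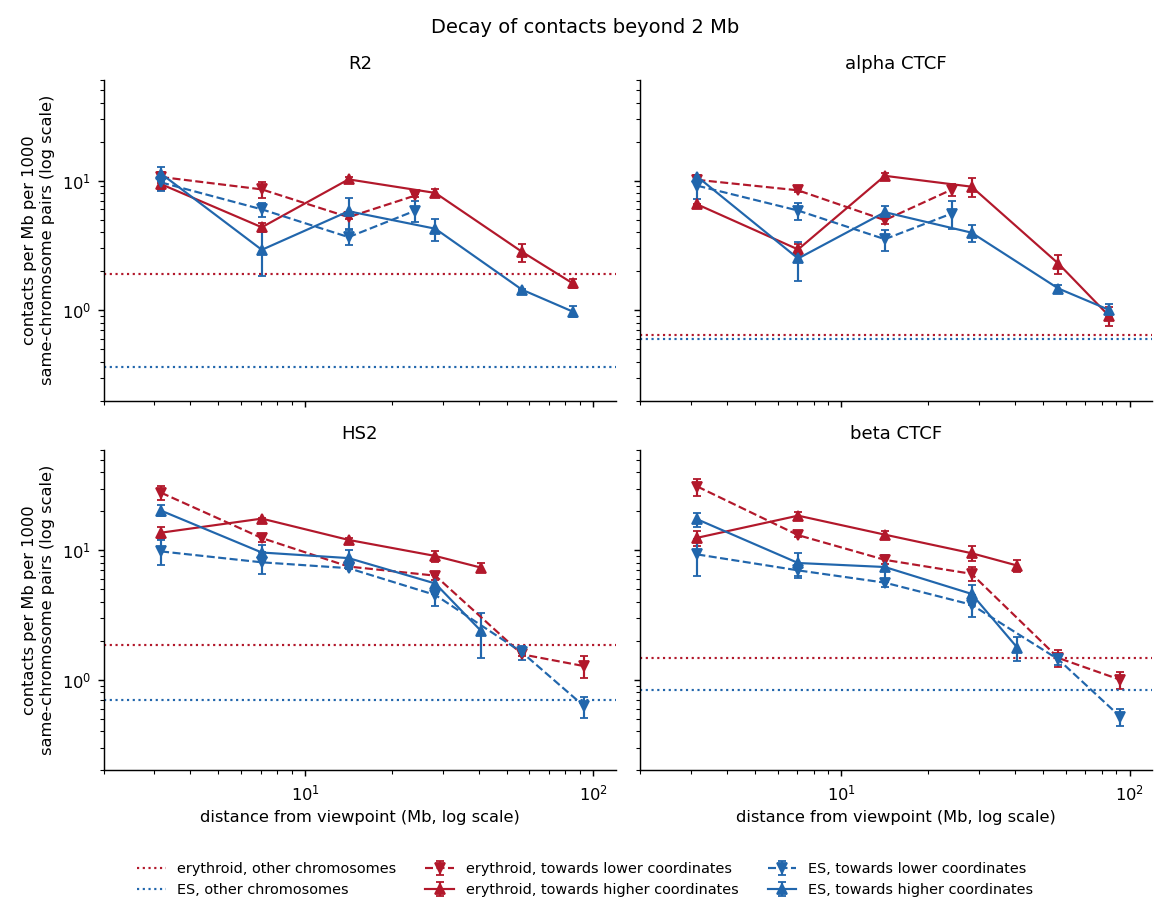
Contacts per Mb per 1000 same-chromosome pairs (log scale) against distance from the viewpoint (Mb, log scale; each point at the geometric middle of its band), mean ± SD of 3 replicates per cell type; dotted lines give the level on other chromosomes. The dotted lines count all pairs of the table, the points only pairs with both fragments on the viewpoint chromosome. The alpha viewpoints rise again between 10 and 40 Mb towards higher coordinates, and the beta viewpoints have 27.9 and 31.1 contacts in erythroid cells, against 9.81 and 9.30 in the ES cells, 2 to 5 Mb towards lower coordinates.

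A single slope of log10 contacts per Mb on log10 distance, both sides joined, summarises these curves only roughly. It was flatter in erythroid cells for R2, -0.44, -0.45 and -0.54, against -0.66, -0.60 and -0.66 in ES cells (exact permutation p = 0.1). For alpha CTCF the mean slopes were -0.56 in erythroid cells and -0.62 in ES cells (exact permutation p = 0.4). For HS2 they were -0.86 in erythroid cells and -0.88 in ES cells (exact permutation p = 0.3), and for beta CTCF -0.93 in erythroid cells and -0.89 in ES cells (exact permutation p = 0.4), with overlapping replicates. Over the bands from 2 to 40 Mb alone the erythroid minus ES difference in slope was 0.22 for each alpha viewpoint, -0.08 for HS2 and -0.11 for beta CTCF (exact permutation p = 0.1 each), so the slope depends on the range of distances. Both beta viewpoints declined more steeply than both alpha viewpoints in every replicate of either cell type. Beyond 40 Mb, however, the slope rests on the higher side alone at the alpha viewpoints, whose lower side ends at 29.1 Mb. At the beta viewpoints it rests there almost only on the lower side, since the higher side ends at 41.5 to 41.6 Mb.

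The level on other chromosomes, taken over autosomes that the tables cover whole, was measured beside these curves. It counts fragments of all pairs of the table, also pairs with 1 or both fragments on other chromosomes. The same-chromosome levels count only pairs with both fragments on the viewpoint chromosome. The ratios below thus set unlike sets of pairs side by side, and a ratio near 1 does not mean equal contact. For R2 it was 1.91 ± 0.668 contacts per Mb per 1000 same-chromosome pairs in erythroid cells, against 0.363 ± 0.116 in the ES cells, and for HS2 1.86 ± 0.757 in erythroid cells, against 0.696 ± 0.200 in the ES cells (SD, n = 3 each). For alpha CTCF it was 0.646 ± 0.214 in erythroid cells and 0.596 ± 0.153 in ES cells, and for beta CTCF 1.49 ± 0.513 in erythroid cells and 0.829 ± 0.371 in ES cells. Contacts more than 40 Mb away on the same chromosome stood at 1.43 times that level for R2 in erythroid cells, against 4.00 times it in the ES replicates (exact permutation p = 0.1, no overlap). For HS2 they were at 0.956 times that level in erythroid cells, against 1.86 times it in the ES replicates (exact permutation p = 0.1, no overlap). For alpha CTCF the ratios were 3.26 in erythroid cells and 2.42 in ES cells (exact permutation p = 0.3), and for beta CTCF 1.01 in erythroid cells and 1.51 in ES cells (exact permutation p = 0.4). In the erythroid replicates the ratios were 0.781, 0.678 and 1.41 for HS2 and 0.945, 0.811 and 1.28 for beta CTCF, on either side of the level on other chromosomes. In ES cells those of beta CTCF were 0.949, 2.35 and 1.25. Those of alpha CTCF in erythroid cells lay above it, at 2.91, 2.82 and 4.05. These ratios join all contacts beyond 40 Mb. Among them the last 1.5 Mb of chromosome 7 was at 7.36 contacts per Mb from HS2 and 7.63 from beta CTCF in erythroid cells. What part the level on other chromosomes has in the far levels was not tested.

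In 1 Mb bins the far contacts formed a series of peaks and troughs. Beyond 10 Mb the level of a bin, in contacts per 1000 same-chromosome pairs, ran from 0.794 to 22.9 for R2 in erythroid cells with a median of 3.57, and from 0.371 to 11.7 with a median of 2.26 in ES cells. For alpha CTCF it ran from 0.398 to 24.4 in erythroid cells, against 0.306 to 11.7 in ES cells. For HS2 the highest bins stood at 20.9 in erythroid cells and 11.1 in ES cells, and for beta CTCF at 20.5 in erythroid cells and 9.69 in ES cells. The decline with distance was removed by taking away the mean of each distance band, both sides of the viewpoint joined. Once it was removed, the spread of log2 levels over bins was wider in erythroid cells at each viewpoint. The SD was 0.85 in erythroid cells and 0.75 in ES cells for R2, and 1.10, 1.00 and 1.06 in erythroid cells, against 0.76, 0.81 and 0.79 in the ES cells, for alpha CTCF, HS2 and beta CTCF. Bins more than 2-fold above the mean of their distance band numbered 24 of 114 in erythroid cells and 10 in ES cells for alpha CTCF, and 25 of 138 in erythroid cells and 11 in ES cells for beta CTCF. These spreads over bins are descriptions, since bins are not replicates.

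**Figure D3:**
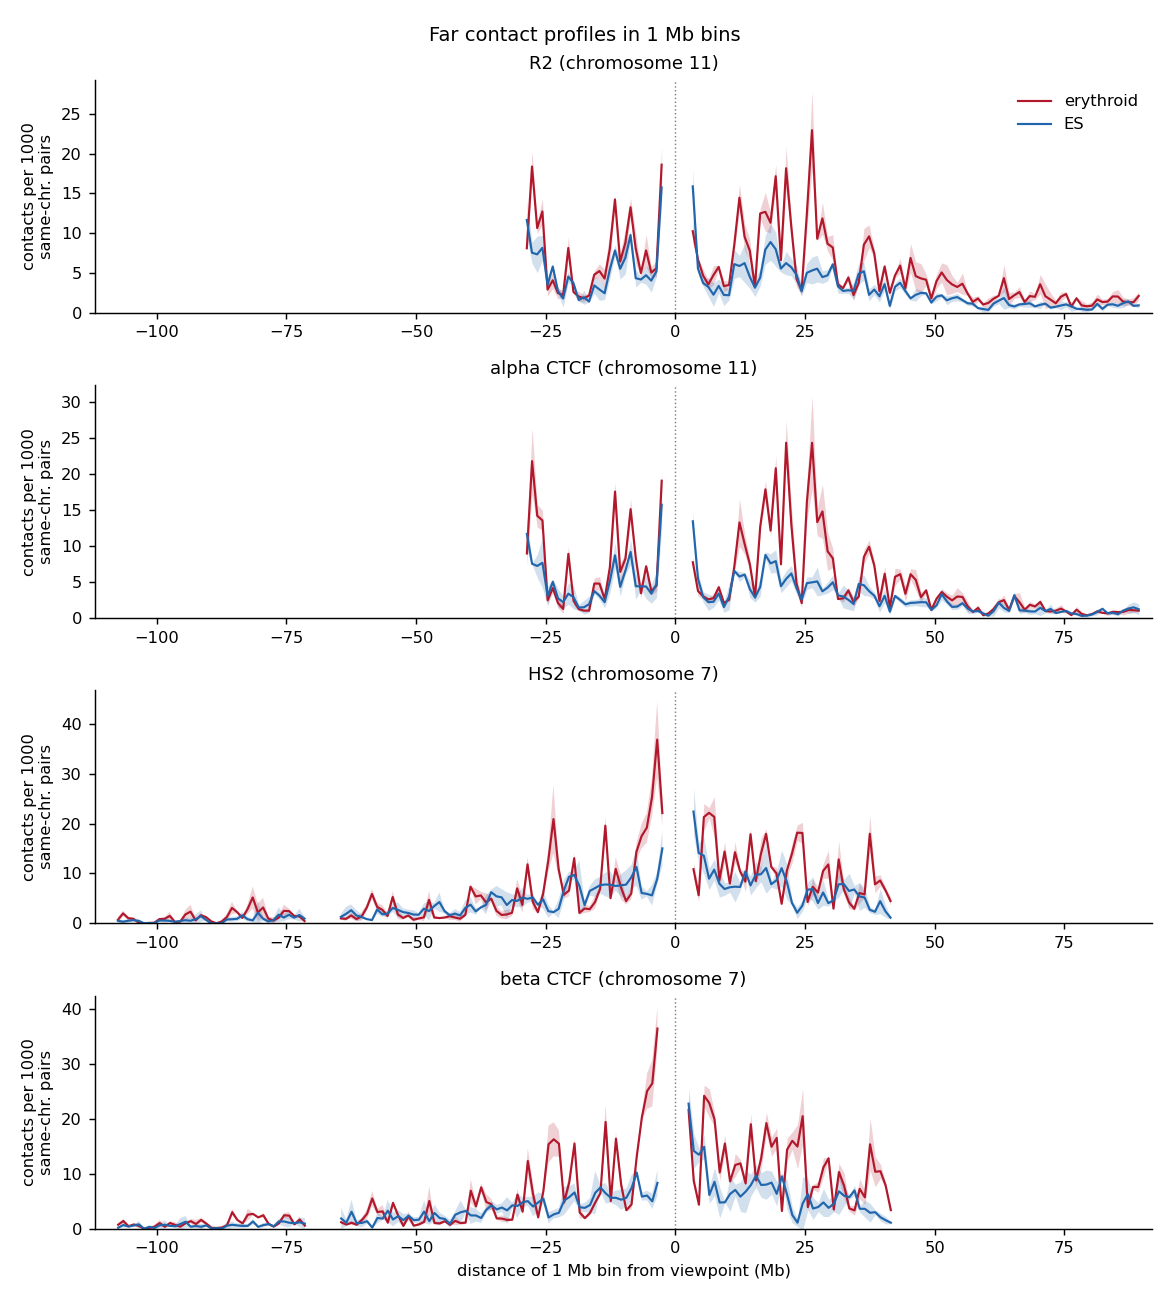
Mean level per 1 Mb bin (contacts per 1000 same-chromosome pairs; shading, ± SD of 3 replicates) against the signed distance of the bin from the viewpoint (Mb). Many peaks and troughs of the alpha viewpoints fall at like distances in both cell types, with erythroid peaks up to 22.9 and 24.4, whereas several beta peaks, such as those near -23.5 and 23.5 Mb, are present in erythroid cells and low in ES cells.

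The profiles of the 2 cell types were more alike at the alpha locus than at the beta locus. Over the far bins, with the decline removed, the erythroid and ES profiles of R2 correlated with a Pearson r of 0.79 over 114 bins, and those of alpha CTCF with 0.84. The same r was 0.21 over 136 bins for HS2 and 0.16 over 138 bins for beta CTCF. At both beta viewpoints single replicates of one cell type were more alike than replicates across cell types. For HS2, r was 0.80 to 0.81 between erythroid replicates and 0.34 to 0.52 between ES replicates, but -0.05 to 0.32 between an erythroid and an ES replicate. For beta CTCF it was 0.87 to 0.91 between erythroid replicates, 0.34 to 0.43 between ES replicates and -0.003 to 0.19 across cell types. For R2 it was 0.84 to 0.86 between erythroid replicates, 0.73 to 0.81 between ES replicates and 0.62 to 0.76 across cell types. For alpha CTCF it was 0.93 to 0.95 between erythroid replicates, 0.66 to 0.78 between ES replicates and 0.70 to 0.78 across cell types. ES replicates were thus less alike at the beta than at the alpha viewpoints, which limits the r across cell types at the beta locus. Without ES replicate 2 the range across cell types was 0.14 to 0.32 for HS2 and 0.05 to 0.19 for beta CTCF. Within a cell type both viewpoints of a locus had like profiles, with r of 0.96 in erythroid cells and 0.88 in ES cells at the alpha locus and of 0.90 in erythroid cells and 0.76 in ES cells at the beta locus. These are descriptions across bins, which share libraries, depth and the composition of each bin. The removal of the decline joined both sides, so differences between the sides remain in these profiles. The shoulder of the alpha viewpoints, shared by both cell types, and the opposite asymmetry of the beta viewpoints thus enter these r. Their part in the contrast between the loci was not tested.

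**Figure D4:**
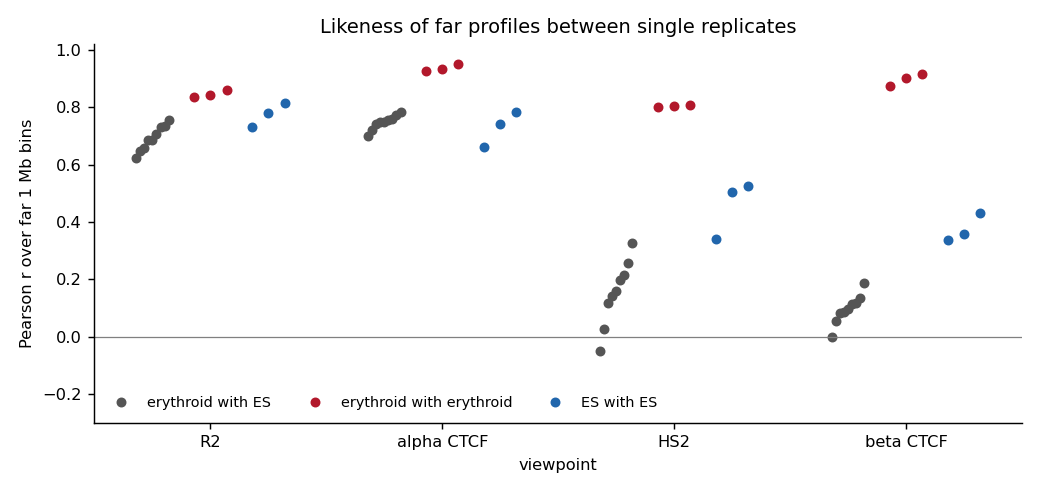
Pearson r between the far profiles of single replicates over 1 Mb bins, the decline with distance removed, for pairs of an erythroid and an ES replicate (grey), of erythroid replicates (red) and of ES replicates (blue). For HS2 and beta CTCF all 9 grey points lie below the blue ones, between -0.05 and 0.32 and between -0.003 and 0.19.

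Each bin was then tested across the cell types. With the same-chromosome pairs as library size, 55 of 114 far bins of R2 were called higher in erythroid cells and 2 lower, beside 46.2% and 4.2% of all its bins. For alpha CTCF 32 of 114 were higher and 1 lower (26.9% and 4.2% of all bins), for HS2 32 of 136 were higher and 10 lower (22.7% and 8.51%), and for beta CTCF 45 of 138 were higher and 13 lower (32.2% and 11.2%). Over all bins of a viewpoint the log2 change had a median of 0.65 for R2, 0.35 for alpha CTCF, 0.22 for HS2 and 0.58 for beta CTCF. The largest rise of each viewpoint is therefore also set against that median below, while the other changes are given without it. The count for R2 was 21 without erythroid replicate 1 and 34 without ES replicate 3, and for beta CTCF it was 32, 36 and 38 without erythroid replicate 1, 2 or 3.

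The split of the calls moved with the scaling. With the whole table as library size R2 had 3 bins higher and 25 lower, alpha CTCF 33 and 2, HS2 12 and 43, and beta CTCF 32 and 26. With far pairs as library size the splits were 12 and 8, 16 and 16, 26 and 37, and 23 and 35 in the same order. With TMM factors they were 12 and 11, 18 and 11, 28 and 28, and 29 and 34, and with DESeq2 14 and 11, 21 and 12, 31 and 27, and 33 and 36. Far bins called the same way under all 5 scalings numbered 3 higher and 2 lower for R2 (2.52% and 3.36% of all bins), 16 higher and 1 lower for alpha CTCF (13.4% and 2.52%), 12 higher and 10 lower for HS2 (8.51% and 8.51%), and 23 higher and 13 lower for beta CTCF (16.1% and 10.5%).

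Named bins are given by their mm9 coordinates, and their genes were not annotated on that build here. On chromosome 11 the highest peak of R2 and one of the highest of alpha CTCF was 58000001 to 59000000. From R2, at 26.3 Mb, it held 25.6, 26.0 and 17.2 contacts per 1000 same-chromosome pairs in the erythroid replicates, against 6.35, 3.36 and 6.25 in the ES replicates. From alpha CTCF it held 25.1, 30.4 and 17.5 in erythroid cells, against 5.40, 4.10 and 5.41 in the ES replicates. The lowest erythroid replicate was well above the highest ES replicate in both. The log2 change was 2.11 ± 0.23 for R2, 1.45 above the median of its bins (edgeR adjusted p = 2.32e-13), and 2.29 ± 0.21 for alpha CTCF, 1.94 above the median (edgeR adjusted p = 8.13e-19).

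From alpha CTCF the bin from 53000001 to 54000000, at 21.4 Mb, held 24.2, 27.6 and 21.4 in erythroid cells, against 5.67, 4.22 and 6.48 in the ES replicates. Its log2 change was 2.16 ± 0.21 (edgeR adjusted p = 6.82e-18). The other bins of largest rise from alpha CTCF were those starting at 60000001, 57000001 and 48000001, with log2 changes of 1.99, 1.73 and 1.55. All 5 were called under all 5 scalings, and all lie in the shoulder between 16.4 and 28.4 Mb. From R2 the bins of largest rise after the first lay farther away, at 69000001 (log2 change 2.08), 77000001 (1.92), 102000001 (1.84) and 109000001 (1.84). The last of these, at 77.3 Mb, held only 1.71, 1.80 and 1.98 in erythroid cells, against 0.586, 0.569 and 0.379 in the ES replicates, and was called under 2 of the 5 scalings. The bin at 102000001 was called under 4 of them.

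A peak near the low end of chromosome 11 was also shared by both viewpoints. The bin from 4000001 to 5000000, at -27.7 Mb from R2, held 17.4, 20.6 and 17.1 in erythroid cells, against 8.46, 6.05 and 8.15 in the ES replicates. Its neighbour from 3000001 to 4000000, the first listed Mb of the chromosome, went the other way. From R2 that bin held 8.32, 7.76 and 8.25 in erythroid cells, against 13.3, 9.10 and 12.6 in the ES replicates, where it was the highest bin beyond 10 Mb. Its log2 change was -0.53 ± 0.23 (edgeR adjusted p = 0.0499), 1 of only 2 far bins called lower for R2, and it missed the threshold when any 1 of 5 of the 6 replicates was left out. The other was 35000001 to 36000000, at 3.35 Mb, with 10.1, 8.83 and 11.9 in erythroid cells, against 17.3, 13.3 and 17.1 in the ES replicates (log2 change -0.63 ± 0.22, edgeR adjusted p = 0.0151). It missed the threshold without erythroid replicate 1 or 2, or without ES replicate 1 or 3. This bin was also the only far bin called lower from alpha CTCF, with 8.58, 7.21 and 7.49 in erythroid cells, against 14.7, 13.5 and 12.1 in the ES replicates (log2 change -0.79 ± 0.21, edgeR adjusted p = 0.00144).

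On chromosome 7 the peaks that differed were larger in ratio. From HS2 the bin from 87000001 to 88000000, at -23.5 Mb, held 25.7, 23.9 and 13.02 in erythroid cells, against 2.35, 2.01 and 2.44 in the ES replicates. It was the highest erythroid bin of HS2 beyond 10 Mb, and its log2 change was 3.20 ± 0.30 (edgeR adjusted p = 1.91e-05), 2.98 above the median. From beta CTCF it held 17.7, 18.4 and 12.8 in erythroid cells, against 2.36, 2.04 and 3.48 in the ES replicates (log2 change 2.64 ± 0.30, edgeR adjusted p = 0.000200). At nearly the same distance on the other side, the bin from 134000001 to 135000000 held 18.1, 19.7 and 16.6 from HS2 in erythroid cells, against 2.10, 1.03 and 3.28 in the ES replicates. From beta CTCF it held 16.0, 18.4 and 10.6 in erythroid cells, against 1.48, 0.342 and 1.54 in the ES replicates. Its log2 change was 3.08 ± 0.36 for HS2 (edgeR adjusted p = 4.50e-05) and 3.72 ± 0.51 for beta CTCF (edgeR adjusted p = 0.000325).

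The bin from 52000001 to 53000000, about 58.5 Mb towards lower coordinates, had the largest log2 change of all named bins. From beta CTCF it held 5.85, 6.71 and 4.02 in erythroid cells, against 0.264, 0.188 and 0.212 in the ES replicates. The log2 difference was 4.61 ± 0.41, 4.02 above the median (edgeR adjusted p = 6.66e-05). From HS2 it held 5.74, 7.01 and 4.97 in erythroid cells, against 0.710, 0.546 and 0.774 in the ES replicates (log2 change 3.12 ± 0.38, edgeR adjusted p = 4.56e-05). No single fragment pair carried it, the largest being 0.904% of its contacts from beta CTCF and 1.03% from HS2. The other bins of largest rise were 29000001 and 148000001 for HS2, with log2 changes of 3.08 and 2.71, and 86000001 and 133000001 for beta CTCF, with 2.89 and 2.67. The rise at 29000001, at -81.5 Mb from HS2, was not called from beta CTCF, where it held 2.67, 2.57 and 2.90 in erythroid cells, against 0.990, 1.90 and 1.09 in the ES replicates (edgeR adjusted p = 0.0637). All 10 of the named rises from the beta viewpoints were called under all 5 scalings.

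Other bins of chromosome 7 met the beta viewpoints more often in ES cells. The bin from 131000001 to 132000000 lies 3 Mb from a bin of the largest rises. It held 3.63, 4.30 and 3.89 contacts from HS2 in erythroid cells, against 11.8, 7.08 and 14.3 in the ES replicates. From beta CTCF it held 3.20, 3.26 and 3.26 in erythroid cells, against 10.2, 8.85 and 9.62 in the ES replicates. It was among the 3 highest ES bins beyond 10 Mb at both viewpoints, and it fell by 1.49 on the log2 scale from HS2 (SE 0.29, edgeR adjusted p = 0.00169) and by 1.56 from beta CTCF (SE 0.24, edgeR adjusted p = 0.000672).

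Closer in, the bin from 115000001 to 116000000, at 4.54 Mb from beta CTCF, held 4.38, 4.24 and 4.56 in erythroid cells, against 13.6, 12.2 and 14.7 in the ES replicates. Its log2 change was -1.62 ± 0.23 (edgeR adjusted p = 0.000350). The remaining falls lay on the lower side, from HS2 at 65000001 (log2 change -1.99), 92000001 (-1.83), 77000001 (-1.61) and 64000001 (-1.53), and from beta CTCF at 55000001 (-1.57), 70000001 (-1.54) and 60000001 (-1.48). The bin at 65000001 held 0.911, 1.13 and 1.19 in erythroid cells, against 2.95, 3.45 and 6.48 in the ES replicates. That at 92000001 held 1.76, 2.49 and 2.07 in erythroid cells, against 5.11, 13.3 and 4.12 in the ES replicates, of which replicate 2 stood far above the others. Each of the named falls was called under all 5 scalings from the viewpoint it is named for. Of those on the lower side, 77000001 and 64000001 were so called from both beta viewpoints, and the others only from the viewpoint named. The falls at 55000001 and 60000001 each missed the threshold without any 1 of 4 of the 6 replicates, that at 70000001 without erythroid replicate 1 or 3, and that at 64000001 without erythroid replicate 2.

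Several chromosome 7 peaks formed runs of neighbouring bins. The bins from 133000001 to 136000000 were called higher from both beta viewpoints under all 5 scalings, as were those from 86000001 to 89000000 and from 105000001 to 108000000. The last run is the one nearest to the locus, and its bin from 107000001 to 108000000 held 40.6, 41.7 and 28.0 contacts from HS2 in erythroid cells, against 7.63, 8.96 and 10.1 in the ES replicates. From beta CTCF it held 37.5, 39.9 and 32.2 in erythroid cells, against 6.24, 7.91 and 10.9 in the ES replicates. The bin from 135000001 to 136000000 was the highest erythroid bin of beta CTCF beyond 10 Mb, with 24.9, 21.6 and 15.1 in erythroid cells, against 1.85, 1.71 and 10.3 in the ES replicates, of which replicate 3 stood apart. These runs were picked out after their values had been seen.

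At each viewpoint the 3 highest bins beyond 10 Mb in erythroid cells and the 3 highest in ES cells had no bin in common. The bin at 97000001, among the 3 highest erythroid bins of both beta viewpoints, averaged 19.6 from HS2 and 19.5 from beta CTCF in erythroid cells, against 7.80 and 6.48 in the ES cells. It was called under 4 of the 5 scalings from HS2 and under 5 from beta CTCF. Several of the highest ES bins were not lower in erythroid cells. From alpha CTCF the bins at 49000001 and 20000001 averaged 17.9 and 17.6 in erythroid cells, against 8.78 and 8.72 in the ES cells, called under 4 and 3 scalings. Other high ES bins had no settled direction. From R2 the log2 change at 6000001 was 0.64 with same-chromosome pairs as library size and -0.43 with the whole table, and at 50000001 it was 0.35 and -0.70 in these 2 scalings. From HS2 that at 128000001 was 0.69 and -0.003, and from beta CTCF that at 129000001 was 0.83 with same-chromosome pairs and -0.006 with far pairs as library size.

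A far pair can hold one far fragment with one near the viewpoint, or a pair of far fragments. Both fragments were far in 60.4 ± 1.54% of far pairs of R2 in erythroid cells and 57.2 ± 7.14% in ES cells (SD, n = 3 each). For alpha CTCF the shares were 56.5 ± 2.34% in erythroid cells and 55.2 ± 8.27% in ES cells. For HS2 they were 72.6 ± 0.959% in erythroid cells and 70.5 ± 5.37% in ES cells, and for beta CTCF 69.5 ± 0.737% in erythroid cells and 64.4 ± 6.76% in ES cells. None of these differences exceeded the spread, with exact permutation p between 0.4 and 0.9. ES replicate 2 was the highest of all 6 at each viewpoint, for example 65.4% for R2, against 53.1 and 53.0% in the other ES replicates. Without it the erythroid replicates were higher at each viewpoint, by 7.31, 6.03, 5.14 and 9.02 percentage points (exact permutation p = 0.1 each, the smallest that 3 against 2 allows). The beta viewpoints had the larger both-far share in each cell type.

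Most pairs of far fragments lay together. Less than 1 Mb separated them in 70.6, 69.7 and 76.2% of R2's both-far pairs in erythroid cells, against 80.8, 90.8 and 80.5% in the ES replicates (exact permutation p = 0.1). For alpha CTCF the means were 73.9 ± 3.77% in erythroid cells and 81.1 ± 6.73% in ES cells, for HS2 76.3 ± 2.53% in erythroid cells and 84.2 ± 6.49% in ES cells, and for beta CTCF 74.7 ± 3.94% in erythroid cells and 81.0 ± 5.94% in ES cells, with exact permutation p of 0.3, 0.2 and 0.3. Without ES replicate 2 the erythroid minus ES difference was -3.30 percentage points for alpha CTCF, against -7.17 with it. For HS2 it was -4.26, against -7.91 with it, and for beta CTCF -2.85, against -6.28 with it. With together taken as less than 100 kb apart the differences were -4.88, -3.13 and -2.42 points for these 3 viewpoints. Touching fragments made up 44.4 ± 2.93% of both-far pairs for R2 in erythroid cells and 44.8 ± 8.67% in ES cells. At the other viewpoints they were 42.3 to 47.4% in erythroid cells and 41.1 to 44.7% in ES cells. A pair of touching fragments can be a single contact, since the enzyme need not cut every site, so pairs less than 10 kb apart were also left out.

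Without them, far fragments lay together less often in erythroid cells at all 4 viewpoints. For R2 30.4, 28.7 and 32.2% of the remaining pairs were less than 1 Mb apart in the erythroid replicates, against 53.2, 59.1 and 52.4% in the ES replicates. For alpha CTCF it was 37.1, 34.2 and 39.4% in erythroid cells, against 48.4, 52.1 and 47.4% in the ES replicates. For HS2 it was 35.3, 29.5 and 36.0% in erythroid cells, against 53.7, 60.9 and 50.8% in the ES replicates. For beta CTCF it was 36.7, 34.5 and 37.9% in erythroid cells, against 49.6, 55.6 and 49.3% in the ES replicates. No replicates overlapped at any viewpoint, including with ES replicate 2 set aside, and each exact permutation p was 0.1. In the same pairs both-far shares were 37.7% in erythroid cells and 31.1% in ES cells for R2. They were 34.8, 48.5 and 47.4% for alpha CTCF, HS2 and beta CTCF in erythroid cells, against 30.6, 44.3 and 40.8% in the ES cells. Those groups did not overlap either, except for HS2 (exact permutation p = 0.3).

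**Figure D5:**
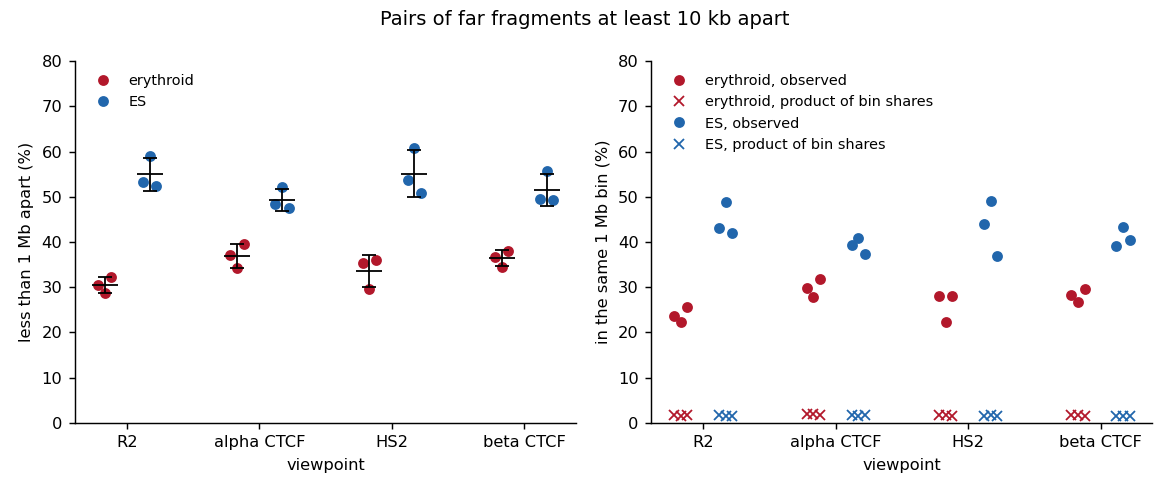
Pairs of far fragments at least 10 kb apart, per replicate, erythroid left of ES at each viewpoint. Left, the share less than 1 Mb apart with mean and SD, 28.7 to 39.4% in erythroid cells and 47.4 to 60.9% in ES cells. Right, the share in the same 1 Mb bin (points) beside the product of the bins' shares among pairs with only 1 far fragment (crosses), which stays below 2%.

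Far fragments shared a 1 Mb bin far more often than a product of bin shares would give. Those shares were taken from far pairs with only 1 far fragment. The product treats both fragments of a pair as independent, so it serves only as a common scale for the cell types. For R2 23.8 ± 1.66% of pairs at least 10 kb apart shared a bin in erythroid cells and 44.6 ± 3.68% in ES cells, where the product of the bin shares gave 1.61% in both. The observed share was 14.8 times the product for R2 in erythroid cells, against 27.8 times it in the ES replicates. It was 16.0, 16.0 and 17.2 times the product for alpha CTCF, HS2 and beta CTCF in erythroid cells, against 24.2, 27.7 and 27.7 times it in the ES replicates, with no overlap of replicates (exact permutation p = 0.1 each).

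For the sides of the viewpoint the product was again taken from pairs with only 1 far fragment. Pairs with fragments on opposite sides were fewer than this product, and commoner in erythroid cells. They were 21.7 ± 0.221% in erythroid cells and 15.4 ± 0.852% in ES cells for R2, beside products of 43.6% in erythroid cells and 47.6% in ES cells. For HS2 they were 23.2 ± 1.42% in erythroid cells and 12.7 ± 1.03% in ES cells, beside products of 49.9 and 49.5% in the same cells (exact permutation p = 0.1 each). For alpha CTCF the shares were 19.4% in erythroid cells and 15.6% in ES cells, and for beta CTCF 21.0% in erythroid cells and 16.2% in ES cells (exact permutation p = 0.1 each).

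The share of far pairs lying together rose with the distance of the nearer fragment in both cell types. The farther fragment then has less chromosome left to lie on, which alone can raise the share. No expected share was computed, so the rise is a description only. For R2, among pairs at least 10 kb apart whose nearer fragment lay 2 to 10 Mb from the viewpoint, 17.7 ± 4.85% were less than 1 Mb apart in erythroid cells and 41.8 ± 1.49% in ES cells. With the nearer fragment 10 to 40 Mb away it was 34.2 ± 2.47% in erythroid cells and 59.7 ± 5.22% in ES cells, and beyond 40 Mb 42.9 ± 4.14% in erythroid cells and 69.6 ± 0.567% in ES cells. HS2 gave 28.0, 37.0 and 45.9% in erythroid cells over the same 3 ranges, against 47.0, 57.4 and 70.2% in ES cells. For beta CTCF they were 31.1, 39.0 and 50.4% in erythroid cells, against 46.3, 52.8 and 65.5% in the ES cells, and for alpha CTCF 23.0, 40.3 and 49.98% in erythroid cells, against 39.2, 52.4 and 64.96% in the ES cells. Erythroid cells lay below ES cells in each range at each viewpoint with no overlap of replicates (exact permutation p = 0.1 each). The share on other chromosomes, given above, moved with the cell type at R2 and HS2, and its part in these pairs was not tested.

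When only 1 fragment was far, the distance of its near partner differed in some ranges. From HS2 the near partner lay 150 kb to 2 Mb from the viewpoint in 23.2 ± 0.900% of such pairs in erythroid cells, against 48.0 ± 8.71% in the ES cells, and from beta CTCF in 29.3 ± 1.60% in erythroid cells and in 51.9 ± 9.97% in ES cells (SD, n = 3 each). It lay 10 to 150 kb away in 48.4 ± 1.19% for HS2 in erythroid cells and 33.1 ± 5.89% in ES cells, and in 55.7 ± 2.56% for beta CTCF in erythroid cells and 34.1 ± 5.42% in ES cells. At the alpha locus the 10 to 150 kb partner was at 48.3 ± 1.73% for R2 in erythroid cells and 39.2 ± 3.09% in ES cells, and at 49.7 ± 2.02% for alpha CTCF in erythroid cells and 44.1 ± 0.624% in ES cells. Replicates did not overlap in any of these 6 comparisons (exact permutation p = 0.1 each). For R2 the 150 kb to 2 Mb partner was at 18.0% in erythroid cells and 23.1% in ES cells (exact permutation p = 0.2), and for alpha CTCF at 18.7% in erythroid cells and 21.4% in ES cells (exact permutation p = 0.1). The partner within 10 kb was at 28.3% for HS2 in erythroid cells and 18.9% in ES cells (exact permutation p = 0.1). At R2, alpha CTCF and beta CTCF it was at 33.7, 31.6 and 14.99% in erythroid cells, against 37.7, 34.5 and 13.96% in the ES cells (exact permutation p = 0.3, 0.2 and 0.9). For HS2 near contacts themselves followed the same order, the band from 150 kb to 2 Mb on the lower side of HS2 holding 59.3 contacts in erythroid cells and 223 in ES cells, per Mb and 1000 same-chromosome pairs.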

How the data were processed

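Tri-C contacts were measured in 10 erythroid and 7 ES libraries. The authors' 4 deposited tables hold counts, all of them whole numbers. Every line gives 2 NlaIII fragments and, per library, how often both were joined to the viewpoint. The submitters' processing notes name Trim Galore, Bowtie and build mm9 without versions or roles. Removal of duplicates and calling of fragments are not given in the sources used here. Without molecular identifiers, counts are not independent molecules.

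Fragments on other chromosomes carry the viewpoint chromosome's fragment boundaries in these tables, so only their chromosome was used. The level on other chromosomes is over the 7 autosomes (669.7 Mb) that the chromosome 11 tables cover whole, and the 13 (1434 Mb) for chromosome 7. Technical replicates were summed. Far bins were named by this rule: per viewpoint, up to 5 in each direction with the largest log2 change among called bins without overlap of replicates, plus the 3 highest beyond 10 Mb per cell type. The members and lists were chosen with earlier results of these data known.

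Contacts in bands and in 1 Mb bins (at least 50 counts) were compared by the quasi-likelihood test of edgeR 4.0.16 under R 4.3.3, library size the same-chromosome pairs, no normalization factors, Benjamini-Hochberg adjusted p under 0.05 over all bands or bins of a viewpoint. Standard errors were taken from the log2 change and its F statistic (absolute change over the root of F). DESeq2 1.42.0, TMM factors, the whole table and the far pairs as library size were the other scalings. Shares and slopes were compared by exact two-sided permutation tests. The bin fits, not the band fits, were also run on simulated counts, drawn with a single dispersion per viewpoint. Those counts were built from the library sizes used in the fit, so they cannot speak to the choice of scaling. Other tools were Python 3.11.15 with scipy 1.17.1, pandas 2.3.3, numpy 2.4.6 and, for figures, matplotlib 3.10.9. Sequences of far regions were not analysed here.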

Additional observations from a re-analysis of the deposited data

How the results depend on the processing

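The 33 bins named for their change kept their direction in all 495 alternatives, and missed the threshold in 31. Bins named only for a high level were not part of these. Of 200 alternatives for shares, slopes and viewpoint differences, 6 turned the direction. With the whole table as denominator the far share difference was -4.85 points for R2 and -3.15 for HS2. The both-far difference for alpha CTCF, 1.26 points, ranged from -1.23 to 6.03 over the fits that left out 1 replicate, and was -1.23 without ES replicate 1 and -1.03 without ES replicate 3. The HS2 slope difference, 0.03, was -0.081 over bands from 2 to 40 Mb only. The alpha viewpoint difference ranged from -0.078 to 0.0060 over the fits that left out 1 replicate, the highest being without erythroid replicate 2. The cause of these turns was not tested. Called far bins of R2, 57, became 28 with the whole table, 20 with far pairs, 23 with TMM factors and 25 with DESeq2, and ranged from 21 to 54 when 1 replicate was left out. For alpha CTCF 33 bins became 18 at a width of 2 Mb, where 57 rather than 114 were tested. For HS2 42 became 74 when each pair was counted once per library. For beta CTCF 58 ranged from 32 to 64 when 1 replicate was left out. Called far bands became 4 with far pairs as library size for R2 (7 before), 5 with the whole table for HS2 (9 before), and 6 with far pairs and 6 with DESeq2 for beta CTCF (10 before). For alpha CTCF 7 ranged from 4 to 7 when 1 replicate was left out.

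Replicate numbers are shared by both cell types. Deviations of same-numbered replicates from their group means correlated with r between -0.13 and 0.19 over the bins. Deviations from a mean of 3 are tied to one another, so this cannot decide whether the numbers mark a pairing. With the replicate block 4 far bands were called for alpha CTCF against 7, and 48, 27, 41 and 51 far bins for R2, alpha CTCF, HS2 and beta CTCF. With 3 pairs an exact sign-flip test cannot go below 0.25. Not every replicate correlated best with its own number, but replicate 2 did so at all 4 viewpoints. Without the first erythroid technical replicates 51, 34, 41 and 51 far bins and 7, 7, 9 and 10 far bands were called for R2, alpha CTCF, HS2 and beta CTCF. ES replicate 2 had the fewest far pairs at each viewpoint.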
